A study of Mus musculus with 8 samples.

Results

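The receptors described here are the 7 genes P2ry1, P2ry12, P2ry14, P2rx1, P2rx4, Adora2a and Adora2b, through which extracellular nucleotides and adenosine act on platelets and other blood cells. They were taken by gene symbol from tables of 55487 genes, and all 7 were found, each in 1 row. The libraries came from platelet RNA of 4 male mice labelled Dnmt3a+/-, heterozygous for Dnmt3a, whose enzyme adds new methyl groups to DNA, and of 4 male WT littermates, all 13 weeks old. Platelets were pelleted from platelet-rich plasma of cardiac blood, and beads against Ter119 and CD45 took out red cells and leukocytes. Each mouse gave 1 library of polyadenylated RNA, and what the mutation removes is not stated in the labels. The comparison asks how receptor transcripts in platelets differ between the labels.

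Nucleotide receptors form a feedback system in platelets. ADP released from dense granules acts on the product of P2ry1, which couples to Gq and releases calcium from stores, and on that of P2ry12, which couples to Gi, lowers cyclic AMP and is blocked by the drug clopidogrel. ATP opens the cation channel encoded by P2rx1. Adenosine, formed from nucleotides outside the cell, acts on the Gs-coupled receptors of Adora2a and Adora2b, which raise cyclic AMP and restrain activation. P2ry14 encodes a receptor for UDP-glucose, and P2rx4 another ATP-gated channel, best known from macrophages and endothelium.

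The 3 abundant receptor genes differ in how many sites for a DNA methyltransferase lie at their starts, and these sequences are shown for that reason. DNA methylation was not measured in these libraries. Each sequence is a RefSeq window on GRCm38.p6 of 250 bases before and 50 after the start of transcription, read 5′ to 3′ on the strand of the gene, with every CpG dinucleotide in capitals. The window of P2ry12 is chr3:59262936-59263235 on the minus strand, that of P2ry1 chr3:61002535-61002834 on the plus strand, and that of P2rx1 chr11:72998895-72999194 on the plus strand. The gene positions given below come from another annotation, GENCODE M21, and starts can differ between the annotations. By those positions P2ry12 starts at 59262871, so its whole window lies before that start.
P2ry12: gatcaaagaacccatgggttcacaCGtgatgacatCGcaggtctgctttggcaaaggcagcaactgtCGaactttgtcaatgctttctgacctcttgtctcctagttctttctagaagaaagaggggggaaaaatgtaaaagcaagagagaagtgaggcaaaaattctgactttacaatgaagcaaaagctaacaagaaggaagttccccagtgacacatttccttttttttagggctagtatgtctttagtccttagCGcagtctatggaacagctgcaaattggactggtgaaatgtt
P2ry1: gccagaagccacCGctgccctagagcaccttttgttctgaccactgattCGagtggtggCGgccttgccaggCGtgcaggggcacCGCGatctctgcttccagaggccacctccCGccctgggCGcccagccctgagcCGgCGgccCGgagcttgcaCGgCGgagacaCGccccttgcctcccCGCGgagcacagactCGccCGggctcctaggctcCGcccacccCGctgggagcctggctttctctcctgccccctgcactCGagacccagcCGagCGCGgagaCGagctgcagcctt
P2rx1: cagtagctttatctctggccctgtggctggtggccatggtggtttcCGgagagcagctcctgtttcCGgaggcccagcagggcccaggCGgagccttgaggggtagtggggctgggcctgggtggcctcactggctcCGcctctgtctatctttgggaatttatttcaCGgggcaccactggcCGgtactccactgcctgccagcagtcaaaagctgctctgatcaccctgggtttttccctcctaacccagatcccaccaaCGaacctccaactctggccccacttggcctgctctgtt
P2ry12 had 4 CpG in its window, P2ry1 25 and P2rx1 7. Among all 32851 windows of this length the median was 7 CpG, 68.6% held at least 4, 52.1% at least 7 and 18.4% at least 25. Among the scarce receptors, the window of Adora2b held 27 CpG, that of P2rx4 18, and the 4 listed starts of P2ry14 held between 1 and 4. CpG is its own reverse complement, so 1 count covers both strands. Adora2a was not matched in that table, so 6 of the 7 genes have a window.

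Total counts ran from 15620972 to 22160394 in the libraries labelled Dnmt3a+/- and from 15185218 to 17398666 in WT. Dnmt3a itself was at 9.96, 11.5, 24.2 and 19.5 CPM (counts per 1000000 of the library after TMM scaling) in the libraries labelled Dnmt3a+/- replicates 1 to 4, against 21.1, 22.1, 19.8 and 18.2 in WT. Its log2 fold change was -0.31 (SE 0.25, edgeR adjusted p = 0.998). Of the first label, replicate 3 was above the WT range and replicate 4 within it, so their Dnmt3a transcript does not bear out the label. The transcript level cannot decide the genotype either way, because what the mutation removes is not stated. Every direction below is between labels. Platelet markers were high throughout (7 genes, summed 34900 to 42370 CPM in the libraries labelled Dnmt3a+/- and 36450 to 39310 in WT). Red cell markers (5 genes) summed to 12670 CPM in WT replicate 1, against 1193 to 3376 in the other 7 libraries. Monocyte and macrophage markers (7 genes, all with some counts) summed to 2.73 to 14.6 CPM in the libraries labelled Dnmt3a+/- and 3.63 to 9.20 in WT, and hepatocyte markers (4 genes) to 0.26 to 100.9 and 8.73 to 1083. Neutrophil markers (2 of 6 at 0 throughout) reached at most 1.59 CPM, B cell markers 0.68, Ptprc (the gene of CD45) 1.67 and endothelial markers 23.5. T and NK cell markers summed to at most 6.75 CPM, nearly all of it from Nkg7, with the other 5 genes (Cd3e, Cd3d, Cd8a, Trac and Ncr1) each at 0.13 CPM or less.

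Receptor transcripts fell into 2 classes, 3 abundant and 4 near the limit of detection. On the TPM scale, which corrects for gene length, every library had the same order at the top, P2ry12, then P2rx1, then P2ry1. P2ry12 averaged 1871 ± 366.8 TPM in the libraries labelled Dnmt3a+/- and 1470 ± 230.3 in WT, P2rx1 457 ± 103 and 496 ± 115, and P2ry1 29.8 ± 3.77 and 24.1 ± 2.37 (SD, n = 4 each). By mean TPM over all 8 libraries, P2ry12 ranked 80, P2rx1 222 and P2ry1 1316 among the 55487 genes. The lowest P2ry12 value was above the highest P2rx1 value, and the lowest P2rx1 value was above the highest P2ry1 value. The other 4 receptors averaged under 0.5 TPM under both labels, and Adora2b had the lowest mean under each. The TPM ranges of P2rx4, Adora2a and P2ry14 overlapped under each label, so the order among these 3 is not resolved.

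**Figure D1:**
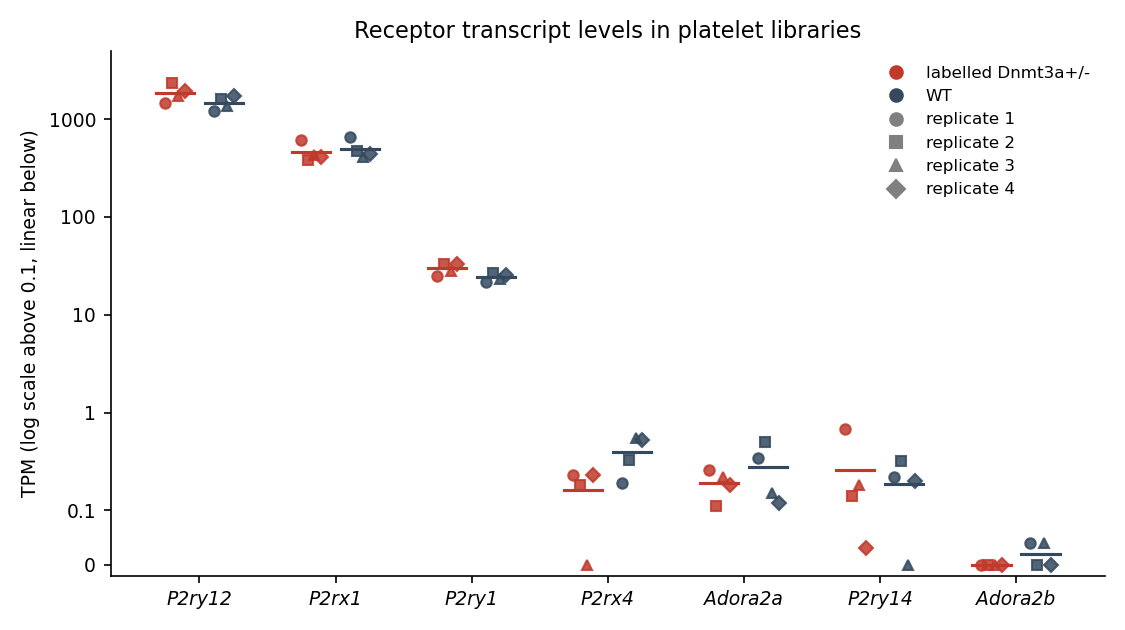
TPM of each receptor gene in each of the 8 libraries, on an axis that is logarithmic above 0.1 and linear below. Colours give the label, marker shapes the replicate number and short lines the group mean; P2ry12, P2rx1 and P2ry1 stand far above the other 4 genes, and for each gene the values of the labels overlap.

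Of the 7 TPM values summed, P2ry12 took 69.97% to 85.01% in the libraries labelled Dnmt3a+/- and 63.8% to 78.6% in WT. P2rx1 took 13.8% to 28.8% and 20.2% to 34.99%, and P2ry1 1.19% to 1.38% and 1.13% to 1.29%. The sum was 2114 to 2760 TPM in the libraries labelled Dnmt3a+/- and 1784 to 2190 in WT. In such bulk libraries a change in the number of platelets of some kind and a change in RNA per platelet cannot be told apart.

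None of the receptor genes differed between the labels past the threshold. Only 3 of the 7 had enough counts to be tested, and 0 of these 3 passed (edgeR quasi-likelihood test, Benjamini-Hochberg adjusted p under 0.05 over 7362 genes). Over all tested genes 0.0% passed, and the smallest adjusted p was 0.128. At an unadjusted p under 0.05 edgeR gave 362 genes, or 4.92%, and 1 of the 3 receptors. The same threshold on adjusted p-values was passed by 14 genes with DESeq2 (0.0759%), by 0 (0.0%) with limma on log2(TPM + 0.5), by 1 (0.0136%) with robust edgeR, by 250 (1.35%) without a filter on low counts and by 135 (1.75%) without WT replicate 1, and no receptor was among them.

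P2ry12, the Gi-coupled ADP receptor (ENSMUSG00000036353; chromosome 3, 59216272 to 59262871, minus strand, GRCm38), was the most abundant member. It had 1479, 2346, 1728 and 1933 TPM in the libraries labelled Dnmt3a+/- replicates 1 to 4, against 1211, 1594, 1354 and 1721 TPM in WT replicates 1 to 4. Replicate 2 of the first label was the highest of all 8 and WT replicate 1 the lowest, and the ranges of the labels overlapped. In CPM the means were 3395 ± 632.6 in the libraries labelled Dnmt3a+/- and 2740 ± 395.4 in WT (SD, n = 4 each). The log2 fold change was 0.31 (SE 0.15, edgeR adjusted p = 0.987), higher in the libraries labelled Dnmt3a+/- without passing the threshold. Of all tested genes, 8.65% had a log2 fold change at least as high. Without replicate 2 of the first label the value was 0.17 (SE 0.14).

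P2ry1, the Gq-coupled ADP receptor (ENSMUSG00000027765; chromosome 3, 61002795 to 61008982, plus strand), had 25.1, 32.8, 28.4 and 32.9 TPM in the libraries labelled Dnmt3a+/-, against 21.4, 26.7, 23.1 and 25.4 TPM in WT. Replicates 2 to 4 of the first label lay above every WT value and replicate 1 lay within the WT range. The log2 fold change was 0.28 (SE 0.11), with an unadjusted p of 0.0313 and an edgeR adjusted p of 0.971. Of all tested genes, 1.73% were higher in the libraries labelled Dnmt3a+/- at an unadjusted p under 0.05, and 10.4% had a log2 fold change at least as high. Counts of P2ry1 may include reads of Gm37035, an antisense gene on the other strand that shares 992 exonic bases with it and was itself listed at 164 to 285 counts per library. The kit marks strand, but how counting treated strand is not stated, so reads of the gene and of its antisense partner cannot be told apart.

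The libraries with the highest ADP receptor levels also stood apart in other transcripts. Replicates 2 and 4 of the libraries labelled Dnmt3a+/-, the highest pair for P2ry12 and for P2ry1 in CPM, held the most monocyte and macrophage marker RNA (14.6 and 12.3 CPM over 7 genes) and the least hepatocyte marker RNA (0.43 and 0.26 CPM over 4 genes). Replicates 1 and 3 of that label held 3.89 and 2.73 CPM of the monocyte and macrophage markers and 70.7 and 100.9 CPM of the hepatocyte markers. They had 2809 and 3070 CPM of P2ry12 and 63.1 and 69.1 CPM of P2ry1. WT replicates 1 to 4 held 3.63, 9.20, 6.84 and 4.69 CPM of the monocyte and macrophage markers. Their hepatocyte marker RNA was at 8.73, 241.1, 1083 and 865.5 CPM. Their P2ry12 was at 2211, 2705, 2902 and 3142 CPM and their P2ry1 at 51.2, 60.3, 63.9 and 62.9 CPM. Within WT, replicate 1 thus had both the least hepatocyte marker RNA and the lowest P2ry12. Rgs18 and Rap1b, signalling genes described below, were also highest in replicates 2 and 4 labelled Dnmt3a+/- (3972 and 3486 CPM, and 3553 and 2897 CPM). The part of these other cells in the receptor levels was not tested.

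P2rx1, the ATP-gated channel (ENSMUSG00000020787; chromosome 11, 72999103 to 73015200, plus strand), varied more between replicates than between labels. It had 609, 380.3, 428 and 412 TPM in the libraries labelled Dnmt3a+/-, against 664, 471, 406 and 442 TPM in WT. Replicate 1 was the highest under each label, and the ranges overlapped almost fully. The log2 fold change was -0.14 (SE 0.20, edgeR adjusted p = 0.998), which 1 library could move either way. It was -0.34 (SE 0.17) without replicate 1 of the libraries labelled Dnmt3a+/-, and 0.05 (SE 0.17) without WT replicate 1. WT replicate 1 was the library with 12670 CPM of red cell markers, and replicate 1 of the other label had the most of its group, at 3376 CPM. P2rx1 was at 1328 and 1225 CPM in these libraries. The platelet markers Itga2b (10220 and 9612 CPM there), Gp1ba, Gp9, Tubb1 and Gp6 were also highest in replicate 1 of each label. Pf4 was not highest there under either label. Ppbp was highest in replicate 1 of the libraries labelled Dnmt3a+/- (19760 CPM) but lowest in replicate 1 of WT (16120 CPM). The part of red cell RNA in the P2rx1 level was not tested.

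**Figure D2:**
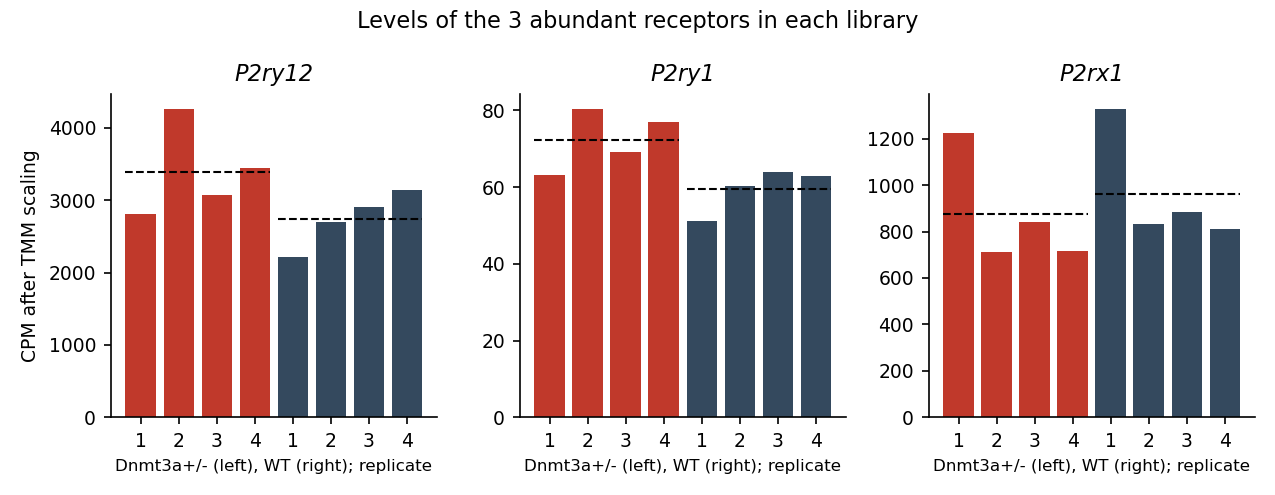
CPM after TMM scaling of P2ry12, P2ry1 and P2rx1 in each library, 1 bar per library, with dashed lines at the group means. P2ry12 and P2ry1 were highest in replicates 2 and 4 of the libraries labelled Dnmt3a+/- and lowest in WT replicate 1, while P2rx1 was highest in replicate 1 of each label.

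The groups did not separate for any tested receptor. In CPM, 0 of the 3 had all 4 values of the libraries labelled Dnmt3a+/- on one side of the 4 WT values, against 2.54% of all tested genes. P2ry1 came closest, with a lowest value of 63.1 CPM in the libraries labelled Dnmt3a+/- and a highest of 63.9 CPM in WT.

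Ratios between receptors within a library remove what scales all of them together. The ratio of P2ry12 to P2ry1, the pair of ADP receptors, was 58.9, 71.5, 60.9 and 58.8 in the libraries labelled Dnmt3a+/- and 56.6, 59.7, 58.7 and 67.8 in WT, as a quotient of TPM values. It varied by 8.42% over the 8 libraries (coefficient of variation), against 19.6% for P2ry12 and 14.1% for P2ry1 in CPM. The mean log2 ratio differed by 0.042 between the labels, less than the spread between replicates (exact two-sided permutation p = 0.543, adjusted over 3 ratios p = 0.543). The highest of the 8 ratios was 1.26 times the lowest.

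The ratios with P2rx1 spread more widely. P2rx1 to P2ry12 was 0.41, 0.16, 0.25 and 0.21 in the libraries labelled Dnmt3a+/- and 0.55, 0.30, 0.30 and 0.26 in WT, a coefficient of variation of 40.3% and a 3.38-fold range. The mean log2 ratio was lower in the libraries labelled Dnmt3a+/- by a difference of -0.46, within the spread between replicates (exact two-sided permutation p = 0.257, adjusted p = 0.386). P2rx1 to P2ry1 was 24.2, 11.6, 15.1 and 12.5 in the libraries labelled Dnmt3a+/- and 31.0, 17.6, 17.6 and 17.4 in WT. Its mean log2 difference was -0.41 (exact two-sided permutation p = 0.200, adjusted p = 0.386). With 4 against 4 libraries there are 70 arrangements, and the smallest p they can give is 0.0286. In both ratios replicate 1 was the highest of its label, and replicate 2 of the libraries labelled Dnmt3a+/- was the lowest under either label. Both differences moved with single libraries. Without replicate 1 of the libraries labelled Dnmt3a+/- they were -0.71 for P2rx1 to P2ry12 (exact permutation p = 0.0571) and -0.64 for P2rx1 to P2ry1 (exact permutation p = 0.0286, the smallest that 35 arrangements can give), each with an adjusted p of 0.0857. Without WT replicate 1 they were -0.22 and -0.21, and without replicate 2 of the libraries labelled Dnmt3a+/- they were -0.26 and -0.28.

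**Figure D3:**
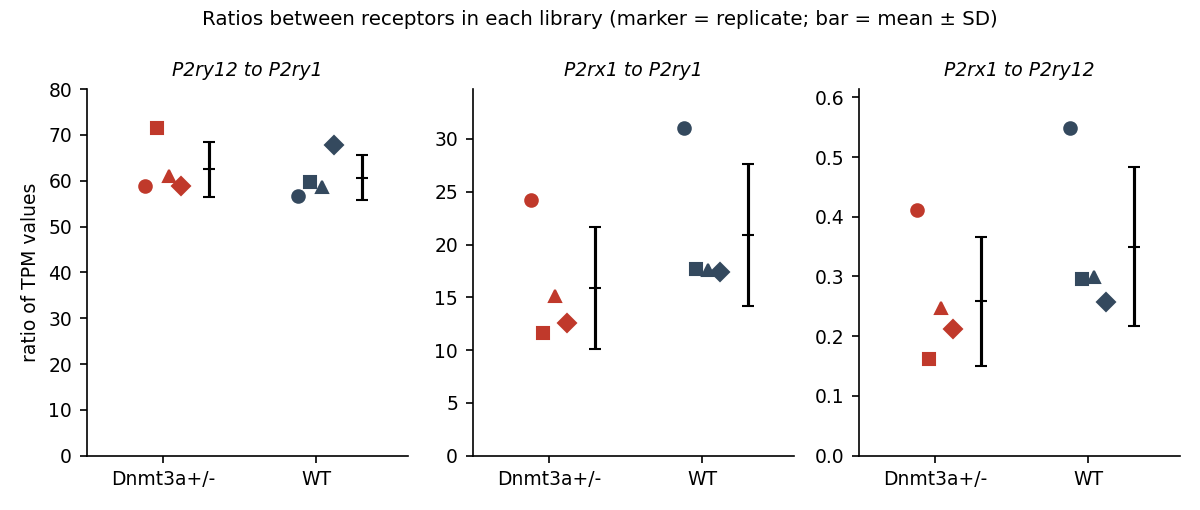
Quotients of TPM values between receptor pairs in each library, with the mean ± SD of each label (n = 4) beside the points. The ratio of P2ry12 to P2ry1 stayed between 56.6 and 71.5, while both ratios with P2rx1 were highest in replicate 1 of each label.

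The 4 scarce receptors had too few counts to be tested. Adora2a, the Gs-coupled adenosine receptor usually named for platelets (ENSMUSG00000020178; chromosome 10, 75316877 to 75334784, plus strand), had 9, 4, 8 and 9 counts in the libraries labelled Dnmt3a+/- and 12, 11, 3 and 4 in WT. Each label summed to 30 counts, with an exact Poisson 95% interval of 20.2 to 42.8 that covers counting error only. The other Gs-coupled adenosine receptor, Adora2b (ENSMUSG00000018500; chromosome 11, 62248984 to 62266453, plus strand), had 0 counts in all 4 libraries labelled Dnmt3a+/- and 1, 0, 1 and 0 in WT. For a count of 0 the exact Poisson 95% interval reaches 3.69, so no difference was detectable at this depth.

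P2rx4, the second ATP-gated channel (ENSMUSG00000029470; chromosome 5, 122707544 to 122729738, plus strand), had 4, 4, 0 and 8 counts in the libraries labelled Dnmt3a+/- and 1, 7, 9 and 7 in WT, sums of 16 (95% interval 9.14 to 26.0) and 24 (15.4 to 35.7). P2ry14, the receptor for UDP-glucose (ENSMUSG00000036381; chromosome 3, 59113855 to 59153618, minus strand), had 6, 3, 4 and 1 counts in the libraries labelled Dnmt3a+/- and 3, 8, 0 and 4 in WT, sums of 14 (7.65 to 23.5) and 15 (8.39 to 24.7). The labels overlapped for P2rx4 and for P2ry14. In a fit without a filter on low counts the log2 fold changes were -0.07 (SE 0.60) for Adora2a, -0.70 (SE 0.77) for P2rx4 and -0.07 (SE 0.86) for P2ry14, with edgeR adjusted p-values of 0.999, 0.832 and 0.999. In that same fit the standard errors of P2ry1, P2ry12 and P2rx1 were 0.14, 0.13 and 0.16.

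The other nucleotide and adenosine receptors of the mouse, listed together with the relatives P2ry10 and P2ry10b, were at low levels. Of the 14 genes in this list, 2 were tested and 12 were not. Of these 12, 3 (P2rx2, P2rx5 and Gpr17) had 0 counts in all 8 libraries. P2rx6, an ATP-gated channel subunit, averaged 0.68 ± 0.10 TPM in the libraries labelled Dnmt3a+/- and 0.91 ± 0.50 in WT (SD, n = 4 each; log2 fold change -0.34, SE 0.35, edgeR adjusted p = 0.998). P2ry10b, a relative of the nucleotide receptors, had 5, 6, 8 and 22 counts in the libraries labelled Dnmt3a+/- and 6, 4, 9 and 3 in WT. P2rx7, an ATP-gated channel of macrophages, had 0, 7, 3 and 6 counts and 0, 2, 0 and 2. P2ry2 and P2ry6, receptors for UTP and UDP, had at most 7 and 6 counts in a library. Adora1 had at most 7 counts, Adora3 at most 3, and P2rx3, P2ry4 and P2ry10 at most 1.

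P2ry13, another Gi-coupled ADP receptor, was the second tested gene of that list and is a neighbour of P2ry12. It lies 5390 bases beyond the annotated end of P2ry12 on the same strand (chromosome 3, 59207892 to 59210882). It averaged 1.76 ± 0.37 TPM in the libraries labelled Dnmt3a+/- and 1.47 ± 0.40 in WT (SD, n = 4 each; log2 fold change 0.22, SE 0.23, edgeR adjusted p = 0.998). Per 10000 counts of P2ry12, the libraries labelled Dnmt3a+/- held 10.3, 10.9, 11.8 and 11.1 counts of P2ry13, against 9.22, 13.0, 12.3 and 11.8 in WT. The exact Poisson 95% intervals of these 8 values, which cover counting error only, all overlapped. They ran from 6.31 to 13.0 in WT replicate 1 at the low end and from 10.04 to 16.6 in WT replicate 2 at the high end. Following P2ry12 over the libraries was not particular to this neighbour. Rgs18, a gene of the Gq arm described below, had 2003 CPM in WT replicate 1 and 3972 in replicate 2 of the libraries labelled Dnmt3a+/-. P2ry12 had 2211 and 4261 CPM there, and these were the lowest and highest libraries for both genes.

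P2ry12 and P2ry14 lie in a run of receptor genes on chromosome 3, inside the span of Med12l, a subunit gene of the Mediator complex that runs on the plus strand. Med12l (59005825 to 59318682) had 4.51 to 6.11 TPM in the libraries labelled Dnmt3a+/- and 4.70 to 6.61 in WT (log2 fold change -0.07, SE 0.13, edgeR adjusted p = 0.998). Gpr171, another G protein-coupled receptor gene of the run, had 0 counts in all 8 libraries, which leaves room for as many as 3 in each, and Igsf10, an immunoglobulin superfamily gene at the far end, had at most 5. The transcripts of P2ry12 share 9 exonic bases with Med12l on the opposite strand, and those of P2ry14 share none. P2ry12 was far more abundant than these neighbours, which were all under 7 TPM in every library. P2ry1 lies on the same chromosome, 1740 kb away.

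**Figure D4:**
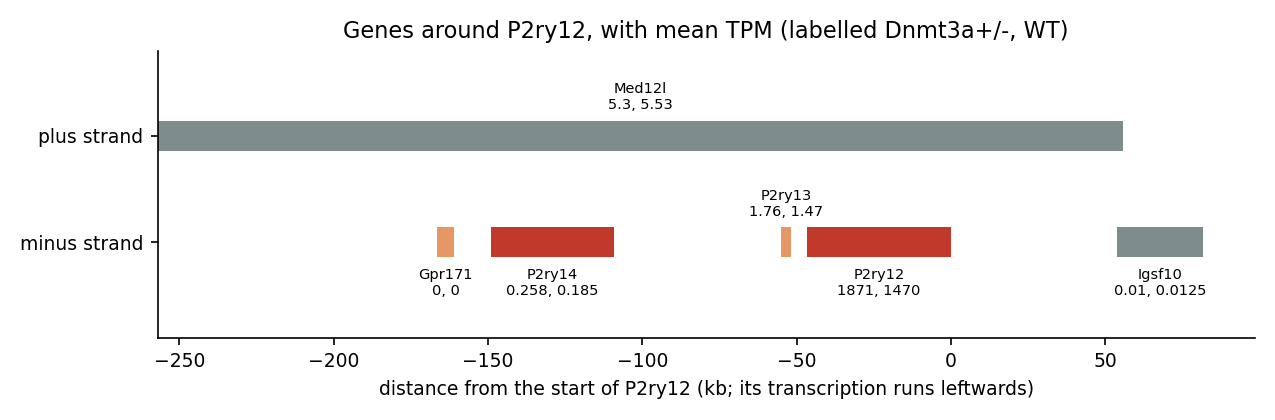
Map of the genes named in the text around P2ry12, with the distance from its start in kb and the strand on the vertical axis; the numbers under or over each gene are mean TPM in the libraries labelled Dnmt3a+/- and in WT. P2ry12 averaged 1871 and 1470 TPM, against at most 5.53 for any other gene drawn.

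Genes with the most similar profiles were found from log2 CPM values over the 8 libraries, each gene centred on its own mean. The measure was the root mean square difference, among 6779 tested genes. Left out were the receptors themselves, genes named Gm plus digits or ending in Rik, and genes with only an identifier, any of which could be closer. For P2ry12 the most similar were Pnpla8, a phospholipase (0.038), and Arih1, a ubiquitin ligase (0.057). For P2ry1 they were Lrrc8c, a subunit of a volume-regulated anion channel (0.048), and Gclm, a subunit of glutamate-cysteine ligase (0.052). For P2rx1 they were Clu, clusterin (0.055), and Nckap1l, an actin regulator of blood cells (0.062). P2ry1 and P2ry12 were 0.095 apart, and each was far from P2rx1, at 0.48 for P2ry1 and 0.54 for P2ry12.

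Genes that work with the receptors were described in lists by role. Over these lists 51 of 86 genes were tested, 0 passed, and 28 of the 51 had a positive log2 fold change, with a median of 0.03. Over all 7362 tested genes 49.0% had a positive value, with a median of -0.01.

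On the P2ry1 side, 11 of 14 genes of the Gq arm were tested and 0 passed in either direction (median log2 fold change 0.08). The most abundant were Rasgrp2, the calcium-dependent activator of Rap1, at 1996 ± 265.1 TPM in the libraries labelled Dnmt3a+/- and 1994 ± 300.8 in WT, and Rgs18, which restrains Gq and Gi signals in platelets, at 1926 ± 426.5 and 1578 ± 312.6 (SD, n = 4 each). Their log2 fold changes were -0.02 (SE 0.14) and 0.24 (SE 0.17), with edgeR adjusted p-values of 0.999 and 0.998.

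On the P2ry12 side, 11 of 13 genes of the Gi arm were tested and 0 passed (median 0.05). Gng11, a G protein gamma subunit, averaged 26630 ± 2299 TPM in the libraries labelled Dnmt3a+/- and 23220 ± 2389 in WT, and Rap1b, the small GTPase that drives integrin activation, 1205 ± 288.6 and 1013 ± 190.5 (SD, n = 4 each). Their log2 fold changes were 0.15 (SE 0.11) and 0.21 (SE 0.17), and the edgeR adjusted p was 0.998 for both. Adenosine receptors act through the Gs arm, of which 13 of 16 genes were tested and 0 passed (median 0.0047). Gnas, the Gs alpha subunit, averaged 2995 ± 277.6 TPM in the libraries labelled Dnmt3a+/- and 3047 ± 578.8 in WT, and Prkar2b, a regulatory subunit of protein kinase A, 475.5 ± 61.1 and 428 ± 26.7 (SD, n = 4 each). The Gs subunit was thus abundant while the receptors Adora2a and Adora2b were near 0.

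Enzymes that break down extracellular nucleotides or handle adenosine were scarce, with 5 of 10 tested, 0 past the threshold and a median of 0.05. Nt5e, the ectonucleotidase CD73 that makes adenosine, averaged 3.34 ± 0.71 TPM in the libraries labelled Dnmt3a+/- and 2.67 ± 0.45 in WT (SD, n = 4 each; log2 fold change 0.29, SE 0.18, edgeR adjusted p = 0.998). Adk, adenosine kinase, was the single list gene with an unadjusted p under 0.05. It had 1.05, 1.67, 1.21 and 1.52 CPM in the libraries labelled Dnmt3a+/-, against 1.91, 2.65, 1.95 and 1.89 CPM in WT. The CPM values of the labels did not overlap, as was so for 2.54% of all tested genes, while the TPM values did overlap. The log2 fold change of Adk was -0.62 (SE 0.25, edgeR adjusted p = 0.963). At an unadjusted p under 0.05, 3.19% of all tested genes were lower in the libraries labelled Dnmt3a+/-.

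For nucleotide storage, release and adenosine uptake, 2 of 8 genes were tested and 0 passed. Panx1, a channel that lets ATP out of cells, averaged 154 ± 10.9 TPM in the libraries labelled Dnmt3a+/- and 151 ± 16.9 in WT, and Abcc4, a transporter of nucleotides in the dense granule and plasma membrane, 13.2 ± 2.83 and 12.6 ± 2.90 (SD, n = 4 each). Slc17a9, the vesicular nucleotide transporter, had at most 1 count in a library. Of 8 genes of receptor desensitisation and trafficking 6 were tested and 0 passed (median -0.02). Arrb2 and Arrb1, the arrestins that bind phosphorylated receptors, averaged 248 ± 28.4 and 137 ± 14.1 TPM in the libraries labelled Dnmt3a+/-, against 242 ± 39.6 and 130 ± 23.2 in WT (SD, n = 4 each).

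**Figure D5:**
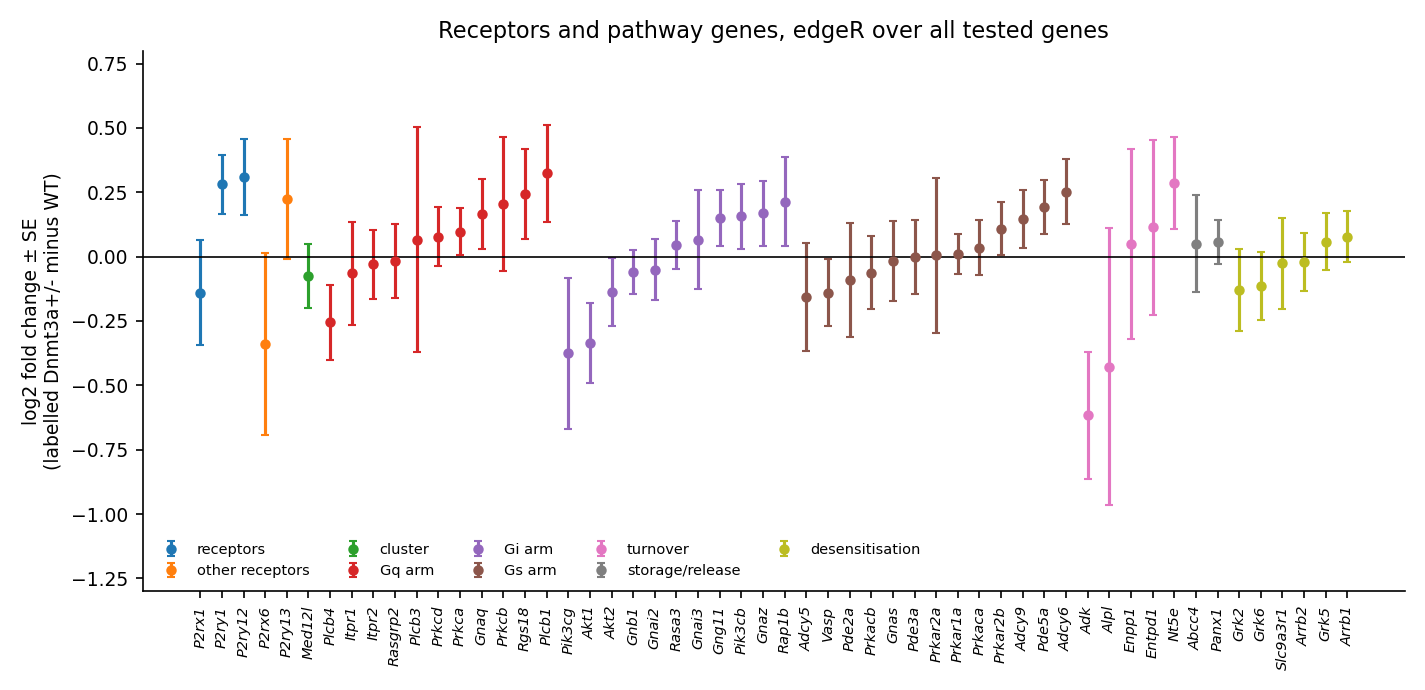
Log2 fold changes ± SE (libraries labelled Dnmt3a+/- minus WT) of every tested receptor and list gene, coloured by role and ordered within each list. Values run from -0.62 (Adk) to 0.32 (Plcb1, a phospholipase C isoform), and no gene passed the edgeR threshold.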

How the data were processed

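The estimated counts and TPM values (transcripts per 1000000, corrected for gene length) were deposited by the authors for each gene and library. The submitters' processing notes list the tools RSEM, STAR, DESeq2 and cutadapt and the build mm10, and give no role, order or version. The annotation release and the strand setting of counting are not given in the sources used here. Estimated counts were rounded, which changed 0 values. All 8 libraries entered 1 fit with edgeR 4.0.16 under R 4.3.3 (TMM factors, filterByExpr with a minimum count of 10 and a minimum total of 15, glmQLFit and glmQLFTest), with Benjamini-Hochberg adjustment over 7362 genes at 0.05. Fold changes are libraries labelled Dnmt3a+/- minus WT. The labels call the samples biological replicates. Ratios of TPM values were compared by exact permutation and adjusted over 3 ratios. The alternatives were limma 3.58.1 on log2(TPM + 0.5, 0.1 or 1), DESeq2 1.42.0, other factors and filters, a replicate block and leaving out each library. Gene positions come from GENCODE M21 (GRCm38), matched by identifier. The members and lists were chosen with earlier results of these data known. From each list the text names genes past the threshold, the 2 with the highest TPM, any with the smallest unadjusted p under 0.05 in a direction, and every other receptor or neighbour with a level. Plcb1 and Slc17a9 were named after their values were seen. The edgeR steps were tested on simulated data. 1 gene is not reported here.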

Additional observations from a re-analysis of the deposited data

Results flagged for a closer look

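In a group of 4, a library was singled out when its gap to the nearest other value was large against the range of the group (Dixon's test at the 95% level). Among 50 groups tested, 4 values were singled out, where chance alone gives about 5% of groups. The ratio of P2rx1 to P2ry1 was 31.0 in WT replicate 1, against 17.4 to 17.6 in the other WT libraries. The ratio of P2rx1 to P2ry12 was 0.548 in the same library, against 0.257 to 0.3 in the others. The ratio of P2ry12 to P2ry1 was 71.5 in the library labelled Dnmt3a+/- replicate 2, against 58.8 to 60.9 in the other libraries of that label. P2rx6 was at 0.82 TPM in the library labelled Dnmt3a+/- replicate 1, against 0.61 to 0.64 in the others. That value rests on 23 counts, against 20, 20 and 28 in replicates 2 to 4, so replicate 1 did not have the most counts.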

How the results depend on the processing

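P2ry1 and P2ry12 kept a positive log2 fold change under all 18 alternatives, and neither passed the adjusted threshold in any of them. Leaving out 1 library at a time gave 0.22 to 0.35 for P2ry1, 0.17 to 0.40 for P2ry12 and -0.34 to 0.05 for P2rx1. P2rx1 changed sign without WT replicate 1 (0.052, SE 0.17), and the ratio of P2ry12 to P2ry1 without the library labelled Dnmt3a+/- replicate 2 (-0.024). Leave-one-out ranges of the log2 ratio differences were -0.024 to 0.096 for P2ry12 to P2ry1, -0.64 to -0.21 for P2rx1 to P2ry1 and -0.71 to -0.22 for P2rx1 to P2ry12. The smallest adjusted p over these ratio alternatives was 0.0857, reached by both ratios with P2rx1 without the library labelled Dnmt3a+/- replicate 1, where 35 arrangements allow an unadjusted p no smaller than 0.0286. The count of genes past the threshold was 250 without a filter on low counts, 14 with DESeq2 and 1 with robust edgeR, and 0 to 135 when 1 library was left out (135 without WT replicate 1, 1 without the library labelled Dnmt3a+/- replicate 2). The causes were not tested. The medians of the 8 lists kept their sign with RLE and upper-quartile factors. Same-numbered replicates correlated at -0.037, 0.081, 0.16 and -0.17 in their deviations from the group means, so the numbers were not taken to pair the samples. With a replicate block the values were 0.28 for P2ry1, 0.30 for P2ry12 and -0.15 for P2rx1, with 0 genes past the threshold and 494 at an unadjusted p under 0.05. The block lowered their standard errors to 0.087, 0.11 and 0.074, from 0.11, 0.15 and 0.20 in the main fit. The unadjusted edgeR p-values with the block were 0.0116, 0.0244 and 0.0803, and the adjusted ones 0.721, 0.721 and 0.793. Blocked ratio differences had exact permutation p-values of 0.625 for P2ry12 to P2ry1 and 0.125 for both ratios with P2rx1, where 0.125 is the smallest that the 16 sign flips of 4 pairs can give, so this test could not pass the threshold. Depth limits the 4 scarce receptors, at 0 to 12 counts per library.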

Other observations

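Slc29a1, a transporter that takes adenosine into cells, was too scarce to be tested and was picked out after its values were seen. It had 4, 5, 3 and 6 counts in the libraries labelled Dnmt3a+/-, against 6, 10, 26 and 14 in WT. Without a filter on low counts its log2 fold change was -1.72 (SE 0.57, edgeR adjusted p = 0.233), so it did not pass. Gnai1, a Gi alpha subunit gene also picked out after its values were seen, had 0, 1, 0 and 0 counts in the libraries labelled Dnmt3a+/-, against 15, 4, 1 and 1 in WT, with 15 counts in WT replicate 1, the library richest in red cell markers. Its edgeR adjusted p in the same fit was 0.178.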
